A study of Homo sapiens with 12 samples.

Results

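Serine/arginine-rich (SR) splicing factors and the kinases that phosphorylate them were followed through drug treatment of 2 glioblastoma cell lines. The set comprises 10 genes, SRSF1, SRSF2, SRSF3, SRSF4, SRSF5, SRSF6, SRSF7, SRSF11, CLK1 and CLK4, out of 20046 genes that the platform annotation names with a single symbol. Every probe carrying one of these symbols was taken, which gave 13 probes. Of these, 12 passed the filter on dim probes (detection p under 0.01 on at least 2 of the 12 arrays), and each of the 10 genes kept at least 1 probe. CLK1 and SRSF5 were each read by 2 kept probes. The thirteenth probe, ILMN_2135232 for SRSF3, was detected on 0 arrays and was not tested. SRSF11 was detected on 4 arrays only, the 2 with TMZ and the 2 with TMZ and Y15, and CLK4 on 10 arrays, those of U87 with Y15 being the exceptions.

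The arrays form 6 groups of 2. DBTRG cells received Y15 or were left untreated. U87 cells received temozolomide (TMZ) with Y15, Y15 alone or TMZ alone, or were left untreated. Both are established human glioblastoma lines. Y15 is a small molecule that inhibits focal adhesion kinase, which relays signals from integrins at the cell membrane; cells received 10 µM for 24 h. TMZ is a DNA-alkylating drug given to patients with glioblastoma. Its dose was 20 µM by the sample titles and 100 µM by the design text, and which of them is right was not settled. TMZ was also given for 24 h. Each line stands for 1 tumour, and the labels do not say whether the 2 arrays of a group came from separate cultures, so the p-values rest on differences between arrays that may be technical replicates. The labels describe RNA extraction from frozen tissue, although every sample is labelled as a cell line.

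SR proteins bind exonic enhancers in pre-mRNA through RNA recognition motifs, and recruit the splicing machinery through a tail rich in arginine and serine. Phosphorylation of that tail by SRPK kinases in the cytoplasm and by CLK kinases in the nucleus moves SR proteins between nuclear speckles and sites of transcription. Many SR genes limit their own level by splicing in a poison exon, which sends the transcript to nonsense-mediated decay. CLK1 transcripts also exist as partly spliced forms that stay in the nucleus and can be spliced to completion under stress. An array probe reads only the stretch of transcript it matches, so a change in isoform and a change in total transcript cannot be told apart with 1 probe. The probe sequences were not used here.

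Promoter windows of 250 bases before the start site were taken from RefSeq (GRCh38.p14). They were found for 9 of the 10 genes, in 12 windows, because some genes have several start sites. The windows of CLK1, SRSF3 and SRSF5 are shown because these genes moved in different ways when arrays were quantile normalized. CLK1 rose with Y15 in both lines, SRSF3 fell with Y15 in DBTRG, and SRSF5 rose with Y15 in U87. When arrays were centred on the median of all probes, SRSF5 did not rise in U87. SRSF3 then lost its call in DBTRG and was called lower in U87, and CLK1 lost its U87 call on probe ILMN_1679727. Capitals mark matches, on either strand, to the cAMP response element half-site (TGACG, or CGTCA on the other strand), the CCAAT box (CCAAT or ATTGG) and the GC box (GGGCGG or CCGCCC).
CLK1, window 2 (chr2:200864659-200864908, minus strand): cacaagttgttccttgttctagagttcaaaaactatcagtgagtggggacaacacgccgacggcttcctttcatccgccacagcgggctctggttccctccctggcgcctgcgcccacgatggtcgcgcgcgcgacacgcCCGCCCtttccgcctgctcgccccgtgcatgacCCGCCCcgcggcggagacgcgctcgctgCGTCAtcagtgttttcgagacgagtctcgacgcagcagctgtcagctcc
SRSF3 (chr6:36594112-36594361, plus strand): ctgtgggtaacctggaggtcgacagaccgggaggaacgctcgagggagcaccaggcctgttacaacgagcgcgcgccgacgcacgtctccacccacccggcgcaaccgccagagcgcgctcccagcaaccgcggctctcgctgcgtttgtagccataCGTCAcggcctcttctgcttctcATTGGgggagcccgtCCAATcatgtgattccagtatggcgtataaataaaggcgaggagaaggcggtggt
SRSF5 (chr14:69766892-69767141, plus strand): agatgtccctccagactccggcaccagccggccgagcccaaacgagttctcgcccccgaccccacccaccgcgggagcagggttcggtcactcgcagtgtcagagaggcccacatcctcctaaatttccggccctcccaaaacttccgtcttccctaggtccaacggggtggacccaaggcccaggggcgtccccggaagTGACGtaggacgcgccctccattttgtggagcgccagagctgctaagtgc
TGACG stood 49 bases before the CLK1 start in this window, 93 bases before that of SRSF3 and 50 bases before that of SRSF5. The same CLK1 site stood 146 bases before the start of the other CLK1 window, so its distance depends on the window shown. It was present in 9 of the 12 windows of the set, against 21.2% of the 35116 windows of all genes, and the 2 CLK1 windows overlap and share bases, as do the 2 of SRSF7. GGGCGG was present in 7 of 12 windows, of 5 genes, against 42.6% of all windows, and the overlapping windows of CLK1 and of SRSF7 share sites. CCAAT was present in 1 of 12, that of SRSF3, against 32% of all windows. The full element TGACGTCA and the composite element TGATGNAA (N for any base) were each found in 0 of 12, against 1.65% and 3.14% of all windows. These are matches of letters and no evidence of binding.

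An array detected 14437 to 16889 of its 47323 probes, and the U87 arrays with Y15 detected 14437 and 15169. The median log2 signal of the kept probes, before the arrays were put on a common scale, was 6.71 and 6.61 on those arrays, against 7.46 and 7.31 on untreated U87 arrays. Replicate arrays correlated at r = 0.986 (DBTRG with Y15) to 0.994 (U87 untreated). Of the markers checked, the glioma markers VIM, NES and CD44 were detected on 12 arrays, OLIG2 on 8 (all U87) and SOX2 on 6 (4 of DBTRG), while the astrocyte markers GFAP and S100B were detected on none. PTPRC, CD3E, CDH1, CDH5 and VWF, which define leukocytes, epithelium and endothelium, were also detected on none, CD68 was detected on 12, PECAM1 on 5, EPCAM on 4 (all U87), KRT18 on 4 and KRT8 on 3 (all DBTRG). Values below are log2 signals after quantile normalization unless stated, and a probe is called where its Benjamini-Hochberg adjusted limma p, taken over all 19354 kept probes, is under 0.05. In a bulk RNA extract, fewer cells of a kind and less RNA per cell cannot be told apart.

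**Figure D1:**
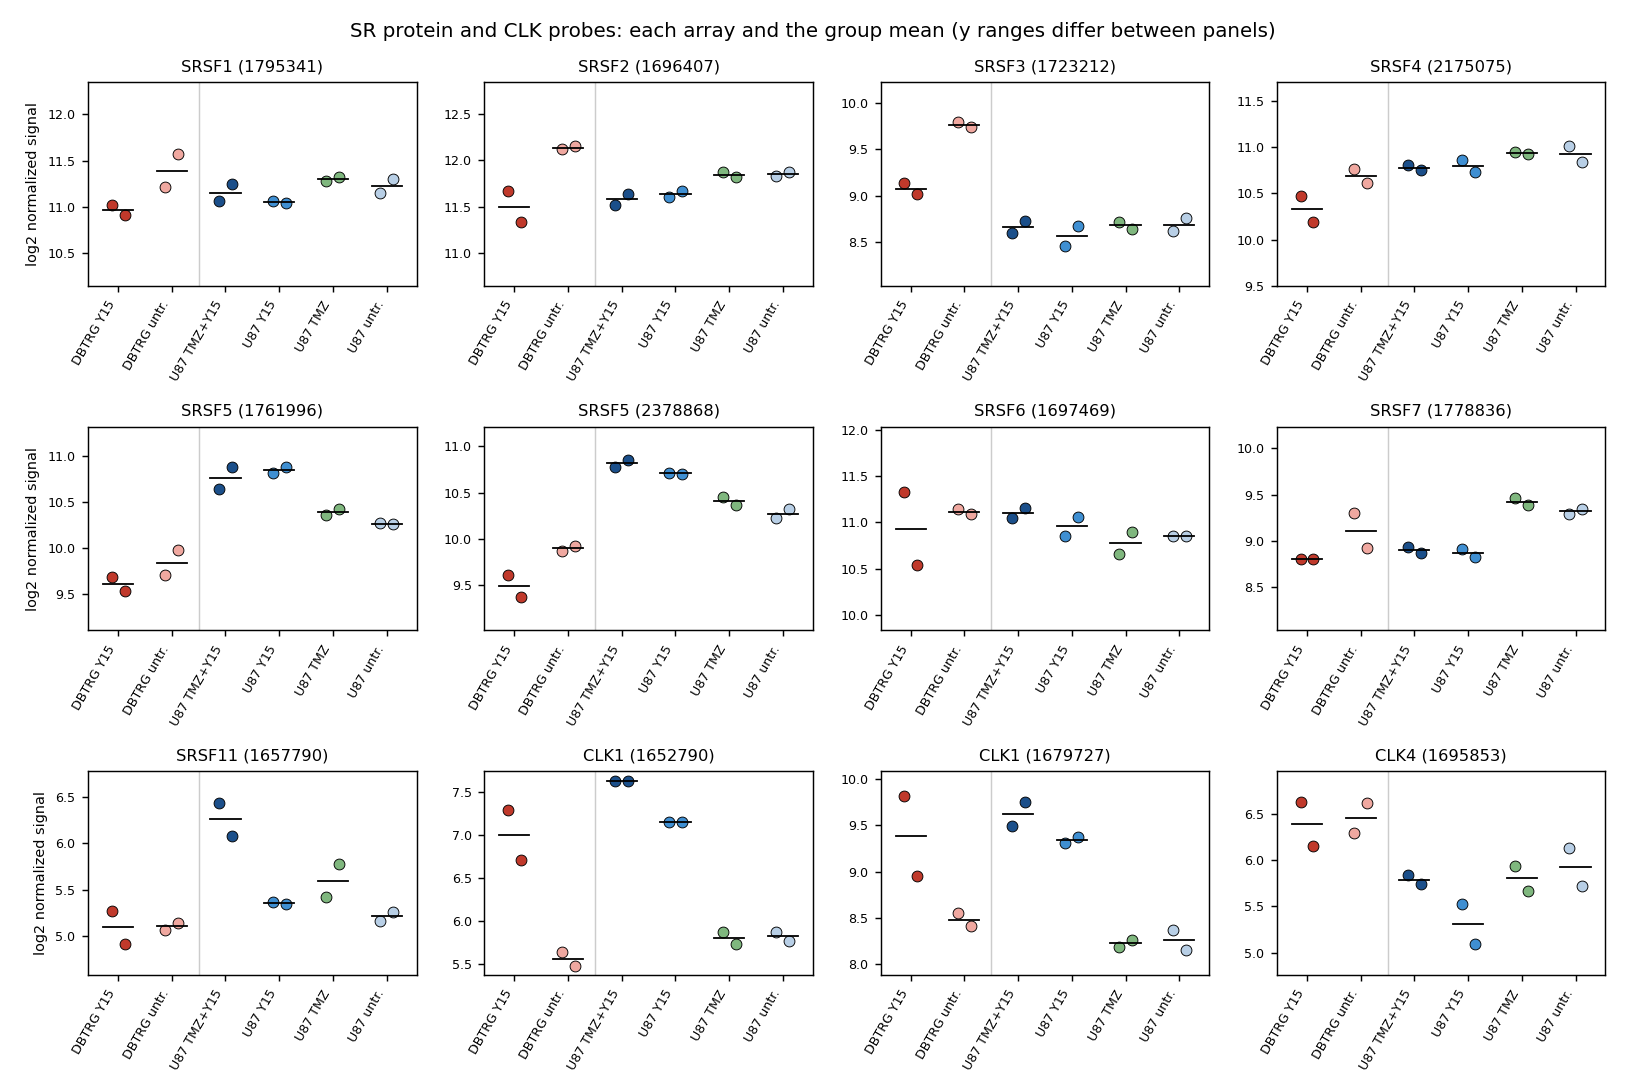
Log2 signal of the 12 kept probes of the set, 1 panel per probe, with a point for each of the 12 arrays and a line at each group's mean (2 arrays a group). The CLK1 points of all Y15-treated groups lie above those of the groups without Y15, and SRSF3 is highest in untreated DBTRG.

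CLK1, a nuclear kinase that phosphorylates SR proteins, rose with Y15 in both lines and on both of its probes. On probe ILMN_1652790 the signal was 7.28 and 6.71 in DBTRG with Y15, against 5.64 and 5.48 in untreated DBTRG. In U87 it was 7.63 and 7.62 with TMZ and Y15, 7.14 and 7.14 with Y15, 5.87 and 5.73 with TMZ, and 5.88 and 5.77 untreated. The 6 arrays with Y15 lay above the 6 arrays without it. The change was 1.43 ± 0.17 log2 units (SE, 2 arrays a group; 2.70-fold; adjusted p = 0.000188) in DBTRG. It was 1.32 ± 0.17 (adjusted p = 0.0007) for Y15 in U87 and 1.80 ± 0.17 (adjusted p = 0.000142) for TMZ and Y15 against untreated U87.

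Probe ILMN_1679727 for CLK1 gave 9.82 and 8.95 in DBTRG with Y15, against 8.55 and 8.41 in untreated DBTRG. The U87 values were 9.50 and 9.76 with TMZ and Y15, 9.30 and 9.37 with Y15, 8.18 and 8.26 with TMZ, and 8.36 and 8.15 untreated. Again no array with Y15 overlapped the arrays without it, although the DBTRG replicates with Y15 lay further apart than those of any other group. The change was 0.91 ± 0.23 (adjusted p = 0.0131) in DBTRG, 1.08 ± 0.23 (adjusted p = 0.0106) with Y15 in U87 and 1.37 ± 0.23 (adjusted p = 0.00355) with TMZ and Y15. Without replicate 1 of DBTRG with Y15 the first of these was 0.47 (adjusted p = 0.0594), and without replicate 2 of untreated DBTRG its adjusted p was 0.0670. In U87 the Y15 call was lost without replicate 2 of untreated cells (adjusted p = 0.0829) or without replicate 2 of Y15 cells (adjusted p = 0.0510). When arrays were centred on the median of all probes, the change with Y15 in U87 was 0.40 (adjusted p = 0.241) on this probe and 0.81 (adjusted p = 0.00884) on ILMN_1652790. The Y15 calls on ILMN_1652790 held in every alternative run.

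The Y15 change of CLK1 in DBTRG minus that in U87 was 0.11 ± 0.24 on ILMN_1652790 (95% interval -0.43 to 0.65, adjusted p = 0.793) and -0.18 ± 0.33 on ILMN_1679727 (-0.90 to 0.55, adjusted p = 0.760). A difference between the lines within these intervals was not detectable. The probes also changed by amounts that differed by 0.53 log2 units in DBTRG, 0.24 with Y15 in U87 and 0.43 with TMZ and Y15. None of these differences was called in the test of each probe against the other probes of its gene (adjusted p = 0.347, 0.814 and 0.651). That test called 6.57%, 4.5% and 2.18% of the 6891 probes it covered.

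CLK4, a close relative of CLK1 with the same class of substrates, was not called in any of the 9 comparisons under quantile normalization. It gave 6.62 and 6.15 in DBTRG with Y15, against 6.29 and 6.61 in untreated DBTRG. In U87 it gave 5.84 and 5.74 with TMZ and Y15, 5.52 and 5.09 with Y15, 5.94 and 5.67 with TMZ, and 6.13 and 5.72 untreated. Both U87 arrays with Y15 lay below every other array and did not detect the probe, so its level there is a bound: at least 1.26-fold lower than in untreated U87 (fitted change -0.62 ± 0.22, adjusted p = 0.0785). The DBTRG change was -0.06 ± 0.22 (95% interval -0.55 to 0.42). Centred on all probes, CLK4 was called lower with Y15 in U87 (-0.87, adjusted p = 0.00793), where 51.2% of all probes were called lower. The line difference was then 0.91 (adjusted p = 0.0466), where 38.9% of all probes were called higher.

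With Y15 in DBTRG, 6 of the 12 probes of the set were called, 2 higher and 4 lower, in a comparison where 32.6% of all probes were called, 15.5% higher and 17.1% lower. The 2 higher were those of CLK1, and the 4 lower were single probes of SRSF1, SRSF2, SRSF3 and SRSF5. The median change over the 12 probes was -0.27, against -0.02 over all probes. With Y15 in U87, 5 were called, 4 higher and 1 lower, where 17.4% of all probes were called, 7.62% higher and 9.78% lower, and the median was -0.01, against -0.06 over all probes. The U87 rises were the 2 probes each of CLK1 and SRSF5, and the fall was SRSF7.

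These counts depend on the scale and on single arrays. Centred on the median of the kept probes, 2 were higher and 2 lower in DBTRG, where 14.6% of all probes were higher and 15.5% lower. The 2 lower were SRSF3 (adjusted p = 0.00377) and SRSF2 (adjusted p = 0.00913). In U87 that gave 5 higher and 1 lower, where 15.8% of all probes were higher and 9.05% lower. When each array was centred on the median of all 47323 probes, the count in DBTRG was 2 higher and 0 lower, with SRSF3 at -0.55 (adjusted p = 0.0572) and SRSF2 at -0.48 (adjusted p = 0.103). In U87 the same centring gave 1 higher and 6 lower. Over all kept probes it called 14.7% higher and 8.31% lower in DBTRG, and 3.5% higher and 51.2% lower in U87. Of all probes called with Y15 in U87, 43.8% were higher under quantile normalization, 63.6% when arrays were centred on the kept probes and 6.40% when centred on all probes. In DBTRG these shares were 47.4%, 48.4% and 63.8%. With any 1 of the 4 arrays compared in U87 left out, fewer of the 12 probes were called. Such a fit leaves 1 array in a group, and the share of all probes it called is not given here. The drop can therefore not be read as particular to the set. The lower signal of the U87 arrays with Y15 before scaling moves with these results, and its part in them was not tested.

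SRSF3, which promotes exon inclusion and mRNA export and is a known proto-oncogene, was called lower with Y15 in DBTRG. Its probe ILMN_1723212 gave 9.13 and 9.02 in DBTRG with Y15, against 9.79 and 9.74 in untreated DBTRG. The U87 arrays gave 8.60 and 8.72 with TMZ and Y15, 8.46 and 8.67 with Y15, 8.72 and 8.64 with TMZ, and 8.62 and 8.76 untreated. The DBTRG groups did not overlap and the 8 U87 arrays lay below all DBTRG arrays. The fall in DBTRG was -0.69 ± 0.13 (adjusted p = 0.00205, 1.62-fold lower), and the U87 change was -0.12 ± 0.13 (adjusted p = 0.546). The difference between the lines was -0.57 ± 0.18 (adjusted p = 0.0549) and did not pass. SRSF3 with Y15, when arrays were centred on all probes, was at -0.83 in U87 (adjusted p = 0.00298, called lower) and at -0.55 in DBTRG, and the difference between the lines was 0.28 (adjusted p = 0.433), of the opposite sign.

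SRSF2 is a splicing factor of nuclear speckles that is recurrently mutated in myeloid malignancies. It gave 11.67 and 11.34 in DBTRG with Y15, against 12.13 and 12.15 in untreated DBTRG, with no overlap. Its fall was -0.64 ± 0.13 (adjusted p = 0.00423). In U87 it gave 11.51 and 11.64 with TMZ and Y15, 11.60 and 11.66 with Y15, 11.87 and 11.82 with TMZ, and 11.83 and 11.88 untreated. Both Y15-treated groups lay below the other U87 arrays, but the changes of -0.28 ± 0.13 with TMZ and Y15 (adjusted p = 0.173) and -0.22 ± 0.13 with Y15 (adjusted p = 0.275) were not called. Centred on all probes, SRSF2 with Y15 was called lower in U87 (-0.69, adjusted p = 0.0108), where 51.2% of all probes were. In DBTRG it was then at -0.48 (adjusted p = 0.103) and not called.

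SRSF1, the founding SR protein and a known oncogene, gave 11.02 and 10.92 in DBTRG with Y15, against 11.21 and 11.58 in untreated DBTRG. It was called lower at -0.42 ± 0.14 (adjusted p = 0.0446), close to the threshold, and the call was lost in 9 of 16 alternatives. In U87 its 8 values lay between 11.04 and 11.33, and no comparison within U87 called it under quantile normalization. Centred on all probes, SRSF1 with Y15 was called lower in U87 (-0.71, adjusted p = 0.00445) and not in DBTRG (-0.27, adjusted p = 0.324). The same held for SRSF4, at -0.72 in U87 (adjusted p = 0.0127) and -0.18 in DBTRG (adjusted p = 0.611). SRSF4, a larger SR protein, gave 10.47 and 10.19 in DBTRG with Y15, against 10.77 and 10.61 in untreated DBTRG (-0.36 ± 0.13, adjusted p = 0.0627), and 10.73 to 11.01 across the U87 arrays. SRSF6, another of the larger SR proteins, gave 11.32 and 10.54 in DBTRG with Y15, against 11.14 and 11.09 in untreated DBTRG, so the treated replicates straddled the untreated ones. Its values in U87 were 10.66 to 11.15, and it was called in none of the 9 comparisons.

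SRSF5, an SR protein first found as an insulin-induced gene of rat liver cells, changed differently with Y15 in the 2 lines, except when arrays were centred on the median of all probes. Probe ILMN_1761996 gave 9.68 and 9.54 in DBTRG with Y15, against 9.71 and 9.98 in untreated DBTRG. Its values in U87 were 10.64 and 10.88 with TMZ and Y15, 10.81 and 10.88 with Y15, 10.36 and 10.43 with TMZ, and 10.27 and 10.26 untreated. Probe ILMN_2378868 gave 9.60 and 9.37 in DBTRG with Y15, against 9.87 and 9.93 in untreated DBTRG. In U87 it gave 10.78 and 10.85 with TMZ and Y15, 10.71 and 10.70 with Y15, 10.45 and 10.36 with TMZ, and 10.22 and 10.32 untreated. On both probes the Y15-treated arrays lay below the untreated arrays in DBTRG and above them in U87.

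With Y15 in U87, SRSF5 rose by 0.58 ± 0.14 on ILMN_1761996 (adjusted p = 0.0160) and by 0.43 ± 0.12 on ILMN_2378868 (adjusted p = 0.0337). Both rises were lost when arrays were centred on all probes (adjusted p = 0.980 and 0.502). In DBTRG the changes were -0.23 ± 0.14 (adjusted p = 0.230) and -0.41 ± 0.12 (adjusted p = 0.0250). The call on ILMN_2378868 in DBTRG was lost in 7 of 15 alternatives. Among these were centring on the kept probes (adjusted p = 0.0660) and on all probes (adjusted p = 0.427). The Y15 change in DBTRG minus that in U87 was -0.81 ± 0.19 (adjusted p = 0.0182) and -0.85 ± 0.17 (adjusted p = 0.00934). These were the 2 probes of the set called in this test of the difference, which called 15.8% of all probes, 8.8% with a higher and 6.98% with a lower value. Of the probes called in that test, 55.8% were higher under quantile normalization, 40.3% with arrays centred on the kept probes and 94.5% with arrays centred on all probes. Under the last of these, the SRSF5 changes with Y15 in U87 were -0.01 and -0.17, and the differences between the lines -0.06 and -0.08. That centring put the median of the kept probes at -0.53 with Y15 in U87, and relative to it SRSF5 stood 0.52 and 0.36 higher. When any 1 of the 4 arrays compared was left out, SRSF5 with Y15 in U87 stood at 0.54 to 0.61 on ILMN_1761996 and 0.39 to 0.48 on ILMN_2378868, and neither was called (adjusted p between 0.0601 and 0.170).

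**Figure D2:**
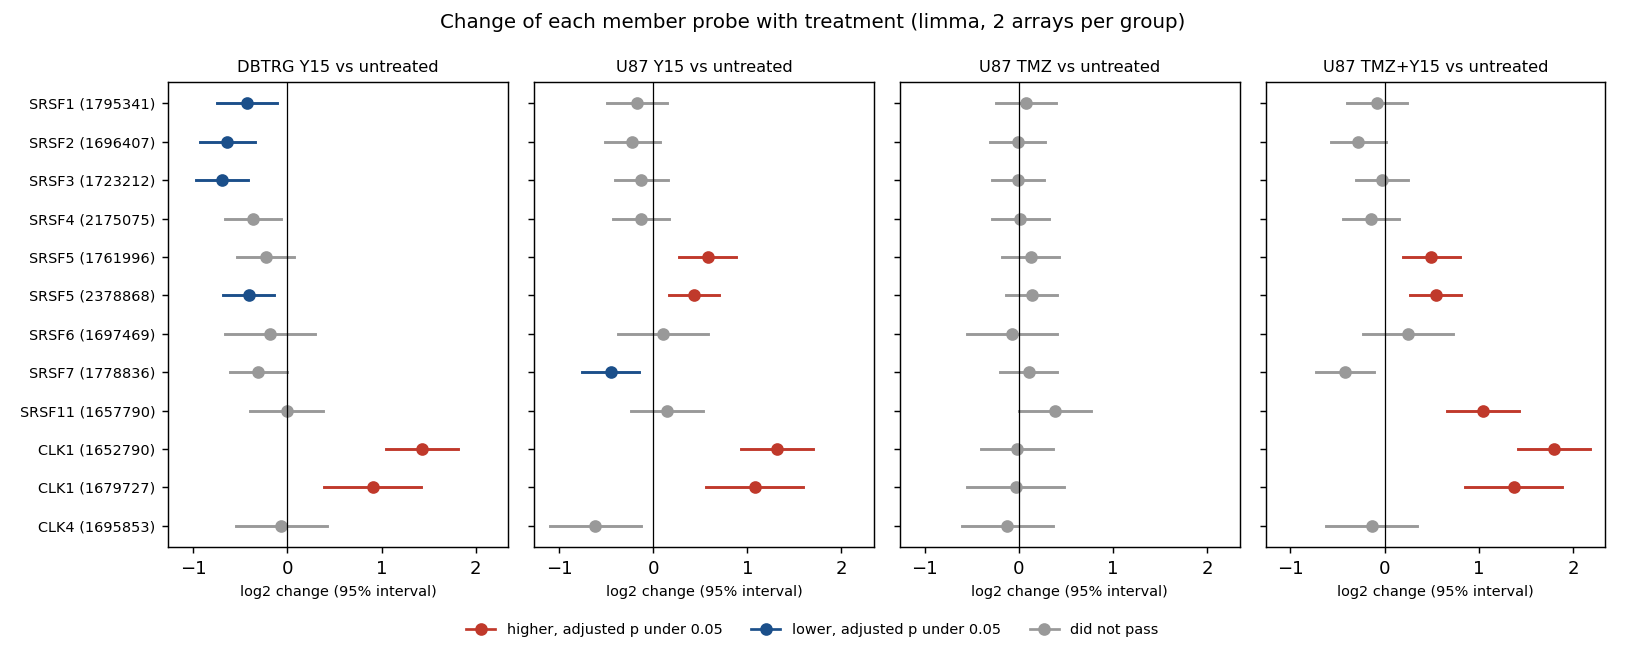
Log2 change with its 95% interval for each of the 12 kept probes (rows) in the 4 comparisons of a treatment with untreated cells (panels, 2 arrays per group), in red where called higher, blue where called lower and grey otherwise. CLK1 lies right of 0 wherever Y15 was given, and SRSF5 lies left of 0 in DBTRG and right of it in U87, where centring on all probes would put it just left of 0 with Y15 alone.

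**Figure D3:**
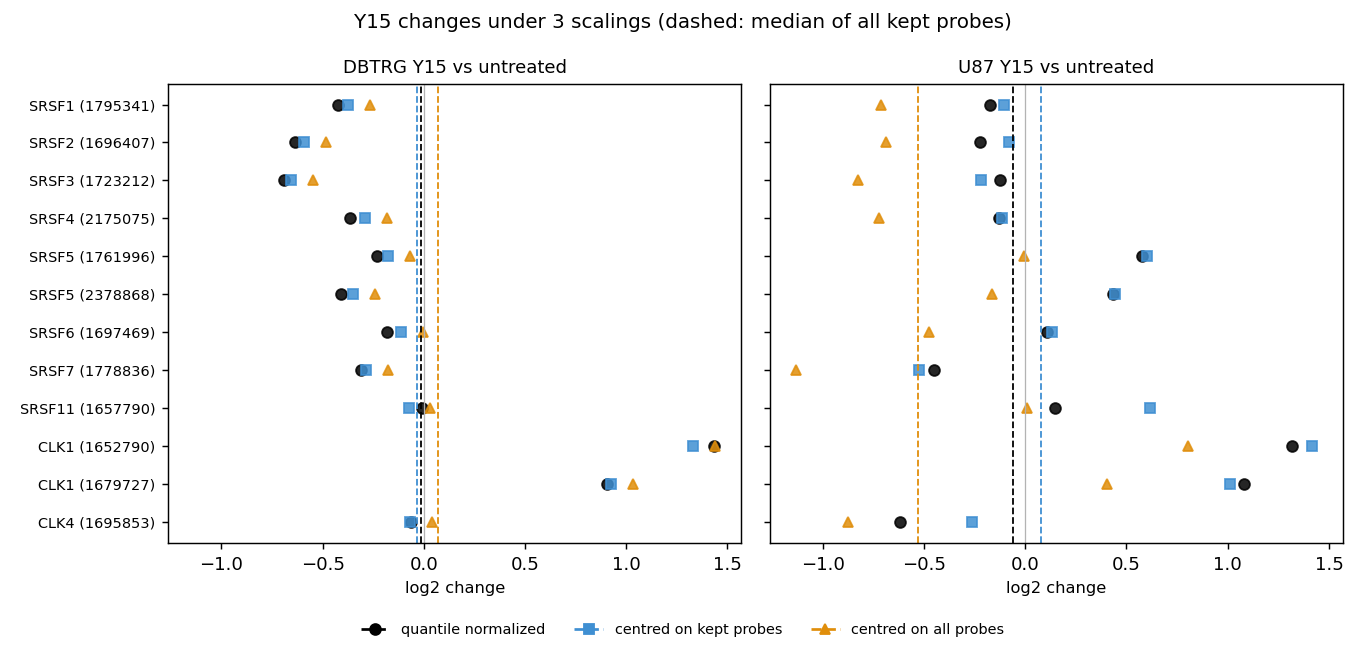
Log2 change with Y15 of each kept probe of the set, in DBTRG and in U87, under quantile normalization, centring on the kept probes and centring on all probes, with the median of all kept probes marked. With Y15 in U87, centring on all probes puts every probe of the set and the median of the kept probes (dashed) lower than quantile normalization does, and SRSF5 stands at -0.01 and -0.17.

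SRSF7, a zinc-knuckle SR protein with a part in mRNA export, was called lower in 2 comparisons within U87. It gave 8.80 and 8.81 in DBTRG with Y15, against 9.30 and 8.92 in untreated DBTRG. In U87 it gave 8.93 and 8.86 with TMZ and Y15, 8.91 and 8.82 with Y15, 9.46 and 9.38 with TMZ, and 9.29 and 9.34 untreated. All 4 Y15-treated U87 arrays lay below the other 4. The change was -0.45 ± 0.14 with Y15 (adjusted p = 0.0472) and -0.42 ± 0.14 with TMZ and Y15 against untreated U87 (adjusted p = 0.0584). Against TMZ alone it was -0.52 ± 0.14 (adjusted p = 0.0233). In DBTRG the change was -0.31 ± 0.14 (adjusted p = 0.114). The call for Y15 alone in U87 was lost when any 1 of the 4 arrays compared was left out, in fits with 1 array in a group. The change with TMZ and Y15 against untreated U87 was called lower in 9 of 17 alternatives. Centred on all probes, SRSF7 with Y15 in U87 was called lower (-1.13, adjusted p = 0.000799), where 51.2% of all probes were. The line difference was then 0.96 (adjusted p = 0.0242), where 38.9% of all probes were called higher.

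SRSF11, an SR-related protein also known as p54, was highest where TMZ and Y15 were combined. Only arrays with TMZ, alone or with Y15, detected its probe, so it passed the filter only through them. Its calls against groups that did not detect it are tied to that filter and are given as a description. In U87 it gave 6.44 and 6.08 with TMZ and Y15, 5.37 and 5.35 with Y15, 5.42 and 5.77 with TMZ, and 5.16 and 5.26 untreated. The 2 arrays with both drugs lay above all others. Untreated U87 did not detect the probe, so the rise there was at least 1.88-fold (fitted change 1.05 ± 0.17, adjusted p = 0.00308). Against TMZ alone, where both groups detected it, the change was 0.67 ± 0.17 (adjusted p = 0.0226), and the call was lost without replicate 1 of TMZ cells (adjusted p = 0.162) or replicate 1 of the combination (adjusted p = 0.157). Against Y15 alone the level was at least 1.59-fold higher (0.90 ± 0.17, adjusted p = 0.0585), which did not pass. The values in DBTRG were 5.27 and 4.92 with Y15, against 5.06 and 5.14 untreated, and no DBTRG array detected it.

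The combination of TMZ and Y15 was called for 5 of the 12 probes against untreated U87, 5 higher and 0 lower, where 18.7% of all probes were called, 8.95% higher and 9.79% lower. These were the CLK1 probes, the SRSF5 probes (0.50 ± 0.14, adjusted p = 0.0300, and 0.54 ± 0.12, adjusted p = 0.0129) and SRSF11. The SRSF11 probe was tested only because arrays with TMZ detected it. Against TMZ alone, 5 were called, 4 higher and 1 lower, where 20.2% of all probes were called, 9.59% higher and 10.6% lower. CLK1 changed by 1.82 ± 0.17 (adjusted p = 0.000122) and 1.40 ± 0.23 (adjusted p = 0.00291) against TMZ alone. The comparisons with untreated U87 share those 2 arrays, and the 2 comparisons of the combination share its arrays. With 1 of the arrays compared left out, fewer of the 12 probes were called against untreated U87 and against TMZ alone. Such a fit leaves 1 array in a group, and the share of all probes it called is not given here. The SRSF5 changes with the combination against untreated U87 were, centred on all probes, 0.34 (adjusted p = 0.235) and 0.38 (adjusted p = 0.210) and lost their calls, which also happened in 3 of the leave-one-out fits for ILMN_1761996 and in 4 for ILMN_2378868. Of all probes called, 47.8% were higher against untreated U87 and 47.5% against TMZ, and 30.7% and 28.4% when centred on all probes.

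TMZ alone was called for 0 of the 12 probes and for 0% of all probes by limma. At an unadjusted p under 0.05 it gave 686 of 19354 probes and 0 of the set. The changes of the set with TMZ lay between -0.12 (CLK4) and 0.38 (SRSF11, 95% interval -0.00 to 0.76). Untreated U87 did not detect SRSF11, so its level with TMZ was at least 1.19-fold higher, and this is a description only. The combination against Y15 alone was called for 0 of the 12 probes, where 0.439% of all probes were called. Its changes were 0.48 ± 0.17 (adjusted p = 0.308) and 0.29 ± 0.23 (adjusted p = 0.704) for CLK1. This comparison, centred on all probes, called 16.8% of all probes higher and 0.429% lower. CLK1 at 0.94 on ILMN_1652790 (adjusted p = 0.0361) and SRSF11 at 1.10 were among those higher. U87 with Y15 alone did not detect SRSF11, which passed the filter only through arrays with TMZ, so its call is tied to that filter. The interaction of TMZ and Y15 was called for 0 of 12 and for 0% of all probes by limma, with 1587 of all probes and 0 of the set at an unadjusted p under 0.05. CLK1 had interaction values of 0.50 (95% interval -0.04 to 1.04) and 0.32 (-0.41 to 1.05).

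Without drug, the lines differed in SRSF3 and SRSF5. Of the 12 probes 3 were called, 1 higher and 2 lower in DBTRG, where 52.4% of all probes were called, 25.1% higher and 27.3% lower. SRSF3 was 1.08 ± 0.13 higher in untreated DBTRG than in untreated U87 (2.11-fold, adjusted p = 3.99e-05). SRSF5 was lower there, with differences of -0.42 ± 0.14 (adjusted p = 0.0230) and -0.37 ± 0.12 (adjusted p = 0.0244). The other 9 probes, CLK1 included, were not called. With 1 of the arrays compared left out, fewer of the 12 were called, in fits whose share over all probes is not given here. With arrays centred on all probes, 1 was higher and 4 were lower, where 12.1% of all probes were higher and 42.7% lower. SRSF4 (-0.79, adjusted p = 0.00650) and SRSF7 (-0.75, adjusted p = 0.00889) were then called as well, and SRSF3 was 0.50 higher (adjusted p = 0.0430).

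Across the 12 arrays, after the mean of the untreated arrays of its line was taken from each, some probes of the set moved together. The 2 CLK1 probes correlated at r = 0.97 and the 2 SRSF5 probes at r = 0.94. SRSF2 correlated with SRSF1 at r = 0.85 and with SRSF3 and SRSF4 at 0.89 each. SRSF7 ran against both CLK1 probes (r = -0.87 and -0.86). Among 11413 genes outside the set, those nearest to CLK1 were RNU6ATAC, the small RNA of the minor spliceosome that removes U12-type introns, PDRG1 and SNORA80A, each at r = 0.98. In all, 208 genes had r above 0.9 with CLK1. RNU6ATAC changed by 2.88 log2 units with Y15 in DBTRG, 4.36 with Y15 in U87, 4.44 with TMZ and Y15 and -0.10 with TMZ. Nearest to SRSF3 were RAB11A and CTSC (r = 0.98 each) and RPE (r = 0.97), with 254 genes above 0.9. These correlations over 12 arrays share the treatments and the normalization.

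**Figure D4:**
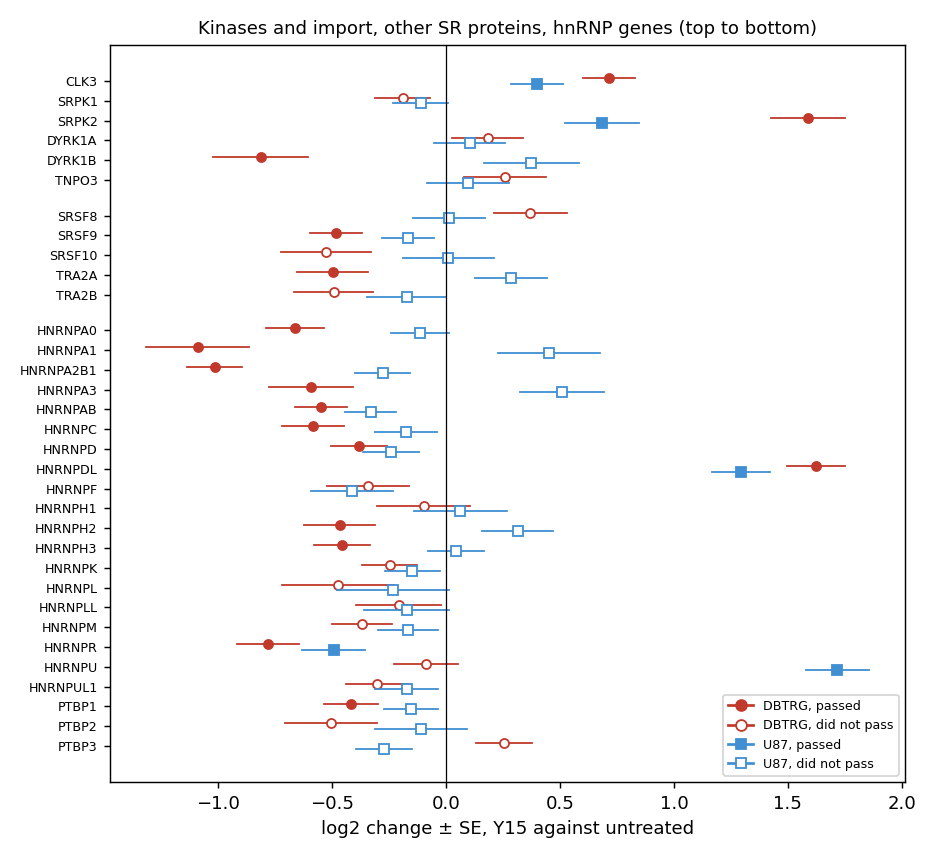
Log2 change ± SE with Y15 against untreated cells, in DBTRG (circles) and U87 (squares), for the measured kinases and import receptor, the other SR proteins and the hnRNP and PTB genes, 1 probe per gene and 2 arrays per group, with filled symbols where the gene was called. SRPK2 and HNRNPDL lie right of 0 in both lines, most hnRNP genes lie left of 0 in DBTRG, and HNRNPU lies near 0 in DBTRG and at 1.72 in U87.

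Genes that act with the set were read from 5 lists, with 1 probe per gene. In those gene-level counts, Y15 called 18.1% of all genes higher and 17.1% lower in DBTRG, and 7.64% higher and 11.4% lower in U87, and the combination 8.79% higher and 11.5% lower. Centred on all probes, Y15 called 14.7% of all kept probes higher and 8.31% lower in DBTRG, and 3.5% and 51.2% in U87. The combination then called 5.47% higher and 12.4% lower. These last shares are of probes, not of genes. Of the other kinases and the import receptor of SR proteins, 6 were measured, and 2 rose and 1 fell with Y15 in DBTRG, 2 rose in U87 and 1 rose with the combination. SRPK2, a cytoplasmic SR protein kinase, rose by 1.59 ± 0.16 in DBTRG (adjusted p = 7.33e-05), 0.69 ± 0.16 in U87 (adjusted p = 0.0166) and 0.93 ± 0.16 with the combination (adjusted p = 0.00406). CLK3 rose by 0.72 ± 0.11 in DBTRG (adjusted p = 0.000991) and by 0.40 ± 0.11 with Y15 in U87 (adjusted p = 0.0365). The SRPK2 changes of the 2 lines differed by 0.90 ± 0.23 (adjusted p = 0.0242), larger in DBTRG. Centred on all probes, SRPK2 and CLK3 with Y15 in U87 gave 0.06 and -0.29 and were not called. The list had 0 higher and 2 lower there. DYRK1B, a related kinase, was the one that fell, with a change of -0.81 ± 0.21 in DBTRG (adjusted p = 0.0131).

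Of 5 other SR proteins measured, 2 fell with Y15 in DBTRG and 0 changed in the other 2 comparisons. SRSF9 changed by -0.48 ± 0.12 (adjusted p = 0.00941) and TRA2A by -0.50 ± 0.16 (adjusted p = 0.0337). Centred on all probes, 0 of the 5 were called in DBTRG. With Y15 in U87, 4 were called lower, where 51.2% of all kept probes were. Of 22 hnRNP and PTB genes, whose proteins often act against SR proteins at splice sites, 1 rose and 11 fell with Y15 in DBTRG, with a median of -0.44 against 0.01 over all genes. In U87, 2 rose and 1 fell with Y15, with a median of -0.16 against -0.07, and likewise 2 rose and 1 fell with the combination. Centred on all probes, 1 rose and 3 fell in DBTRG, and 2 rose and 16 fell with Y15 in U87, again against 51.2% of all kept probes lower. HNRNPDL rose by 1.62 ± 0.13 in DBTRG (adjusted p = 1.42e-05), 1.29 ± 0.13 with Y15 in U87 (adjusted p = 0.000128) and 1.33 ± 0.13 with the combination (adjusted p = 0.000138). HNRNPA2B1 was lower, with a change of -1.02 ± 0.12 in DBTRG (adjusted p = 0.000172). HNRNPU, a nuclear scaffold protein, rose by 1.72 ± 0.14 with Y15 in U87 (adjusted p = 5.40e-05), and its Y15 change in DBTRG minus that in U87 was -1.81 ± 0.20 (adjusted p = 0.000574).

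Of 25 SR-related genes of nuclear speckles, 6 rose and 3 fell with Y15 in DBTRG, 3 rose and 2 fell in U87, and 6 rose and 1 fell with the combination. Centred on all probes, 6 rose and 1 fell in DBTRG, 0 rose and 16 fell in U87, and 2 rose and 1 fell with the combination. That centring called 51.2% of all kept probes lower with Y15 in U87. DDX46, a helicase of the U2 snRNP, fell in all 3, with changes of -0.88 ± 0.12 in DBTRG (adjusted p = 0.000458), -1.05 ± 0.12 with Y15 in U87 (adjusted p = 0.000376) and -0.99 ± 0.12 with the combination (adjusted p = 0.000749). RSRP1 rose by 0.70 ± 0.20 with Y15 in DBTRG (adjusted p = 0.0226), by 0.90 ± 0.20 with Y15 in U87 (adjusted p = 0.0128; 0.26 and not called when centred on all probes) and by 1.42 ± 0.20 with the combination (adjusted p = 0.00141). ARGLU1 and PRPF38B differed between the lines, by -1.09 ± 0.20 (adjusted p = 0.00619) and 1.04 ± 0.19 (adjusted p = 0.00633). The ARGLU1 difference was -0.30 (adjusted p = 0.454) when centred on all probes. Of 10 measured genes of nonsense-mediated decay, 2 rose with Y15 in DBTRG, and 0 were called with Y15 or with the combination against untreated cells in U87. The 2 were SMG5 (0.98 ± 0.15, adjusted p = 0.000844) and SMG8 (0.69 ± 0.15, adjusted p = 0.00663). The same count centred on all probes was 2 higher and 0 lower in DBTRG. With Y15 in U87, 7 of the 10 were called lower, against 51.2% of all kept probes. TMZ alone called 0 genes in every one of the 5 lists.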

How the data were processed

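Single-colour Illumina bead arrays measured mRNA in 12 samples. The authors deposited intensity values, 1 linear signal per probe and array, whose array medians differ as in data not yet normalized. A detection p-value stands beside every signal, per the file headers. The authors' other table has log2 values with an array median near 6.82, and was an alternative here. GenomeStudio was used, per the submitters' processing notes. Its version and the normalization of the second table are not given in the sources used here.

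In limma 3.58.1 (R 4.3.3), the background was removed by normexp, guided by detection p-values, with an offset of 16; log2 signals were then quantile normalized. The offset makes a fold change understate that of dim probes. Probes detected (p under 0.01) on at least 2 of 12 arrays were kept, 19354 of 47323. The platform annotation gave 30113 probes 1 symbol, 8 several, and did not list 17202. The 6 group means were fitted over all 12 arrays (6 residual degrees of freedom, prior 4.33), and limma's two-sided p-values were adjusted by Benjamini-Hochberg over 19354 probes for each of 9 comparisons. For related lists the brightest probe per gene was read. Probes of 1 gene were compared with diffSplice. Bounds ("at least") set a group in which no array detected the probe at the higher of its own value and the lowest detected value of each array. Array number limits precision, with 2 per group.

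The members and gene lists were chosen with earlier results of these data known. Named genes are all probes of the members, up to 4 called genes with the smallest p per list and comparison, and the 3 genes nearest to CLK1 and SRSF3, of which those that bear on the results are printed. The tests were also run on simulated data with 200 changed probes. Of changes of 0.5 log2 units, 5.97% were recovered for Y15 in DBTRG and 8.96% for Y15 in U87. At 1 log2 unit these shares were 77.6% and 76.1%, and at 2 log2 units 100% in both. Y15 called far more probes than were changed there, so these rates need not be those of the data. A probe that was not called may still have changed by such an amount. Alternatives were other background, offset, scaling, filters, weights, blocks, array subsets and leaving out each array.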

Additional observations from a re-analysis of the deposited data

Results flagged for a closer look

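Both SRSF5 probes are listed because the Y15 change of DBTRG and that of U87 differed in the test of the difference itself. The difference, DBTRG minus U87, was -0.81 log2 units on ILMN_1761996 and -0.85 on ILMN_2378868. Both calls were lost when the arrays were centred on the median of all probes, where the differences were -0.06 and -0.08. For ILMN_2378868 this was the only one of 19 alternatives that ended the call, and for ILMN_1761996 it was 1 of 5 among 20. The other 4 left out replicate 2 of untreated DBTRG (-0.67), replicate 1 (-0.82) or 2 (-0.80) of untreated U87, or replicate 2 of U87 with Y15 (-0.77).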

How the results depend on the processing

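Leaving out 1 array lowered the number of probes of the set called for Y15 in U87 and for the untreated lines. It also lowered the number for TMZ with Y15, against untreated U87 and against TMZ. For Y15 in DBTRG the number fell or stayed, and for the difference between the lines it moved either way. It stayed at 0 for TMZ, for the combination against Y15 and for the interaction. Each such fit leaves 1 array in a group, so its counts are not printed. With only the arrays compared in the fit, 2 were called for Y15 in DBTRG, 3 for Y15 in U87, 3 for the combination against TMZ and 1 for the untreated lines. The share of all probes called is not given here for these fits, nor for the offset of 50, array weights and block below. Centring on the median of all probes, an alternative added after seeing the data, gave 2, 3, 2 and 5 calls for Y15 in DBTRG, the combination against untreated U87, the combination against Y15, and the untreated lines. It put SRSF5 with Y15 in U87 at -0.0064 (ILMN_1761996) and -0.17 (ILMN_2378868), since the median of all kept probes moved there too. An offset of 50 and array weights each gave 1 call for the combination against Y15. With the replicate number as a block, 6 probes were called for Y15 in DBTRG, 4 for Y15 in U87, 5 and 4 for the combination against untreated U87 and TMZ, 2 for the line difference and 4 for the untreated lines. The block ended the calls of SRSF1 in DBTRG (adjusted p = 0.0525), SRSF7 in U87 (0.0509) and 1 SRSF5 probe against TMZ (0.0543). Same-numbered arrays did not deviate together (correlations -0.04 to 0.06). These values were taken after quantile normalization, which removes shifts shared by a whole array, so they cannot exclude pairing. The labels do not say whether same-numbered arrays belong together. Over all probes of the set, 346 alternative values kept a call, 79 lost it, and 2 changed sign and were not called. Of those not called in the main run, 1387 stayed so and 55 gained a call. Where the cause is not given here it was not tested. Signal over background limits SRSF11 and CLK4, which some arrays did not detect.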
